A study of Mus musculus with 3 samples.

Results

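Brachyury (*T* in the table) and 8 further genes that mark the primitive streak and the mesoderm it gives rise to, *Eomes*, *Mixl1*, *Gsc*, *Mesp1*, *Tbx6*, *Msgn1*, *Evx1*, and *Lhx1*, were examined by RNA-seq in ALSCs. They were picked by gene name, and all 9 were found among the 55421 named genes of the count table. ALSCs are primed pluripotent stem cells of the mouse, derived from epiblasts of gastrulae at embryonic day 6.5 from ICR females mated with GOF/GFP transgenic males, and propagated in N2B27 medium to which Activin A (20 ng/ml) and LIF (1000 U/ml) were added. All 3 libraries (replicates 1, 2, and 3) carry this background and this medium, so there was no second condition and no untreated control to compare with. The paper calls its RNA-seq replicates biological, but the labels do not say whether they came from separate lines or cultures. A p-value between them thus measures only the spread between these libraries, which may be technical.

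The primitive streak forms at the posterior side of the epiblast at the onset of gastrulation, when Nodal, WNT, and BMP signals switch on a set of transcription factors in cells that are about to leave the epithelium. T-box factors lead this set: *Eomes* acts early in the streak and is needed for mesoderm and definitive endoderm, *T* is expressed along the streak and in the notochord, and *Tbx6* turns posterior cells towards paraxial mesoderm. The homeobox factors *Gsc* and *Lhx1* mark the anterior streak and its derivatives, *Mixl1* is expressed throughout the streak, and *Evx1* marks its posterior part. *Mesp1* and *Msgn1* encode basic helix-loop-helix (bHLH) factors, the former in nascent mesoderm with cardiac potential and the latter in presomitic mesoderm. Activin A signals through the same receptors as Nodal. In bulk RNA, fewer cells that express a gene and less RNA of it per cell cannot be told apart.

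Reads counted on named genes numbered 18037342 to 18724038 per library. Levels are given as FPKM, the counts scaled to gene length and to the library's total on named genes. This allows levels of genes of unequal length to be compared, apart from a length trend in replicate 1 described below. An absence of counts was taken to allow up to 3 counts, a gene was called detected when it had over 3 counts in every library, and such limits and all intervals cover counting error only. By this measure 6 of the 9 genes were detected (66.7%), compared with 60.3% of the 21926 protein-coding genes and 68.0% of the 1530 genes that the table assigns to a family of transcription factors. Only *Gsc* and *Eomes* reached 1 FPKM in each of the libraries (22.2% of the 9 genes), compared with 45.7% of protein-coding genes and 47.5% of genes with a transcription factor family. The median of the 9 mean levels was 0.754 FPKM, beside 0.682 FPKM over protein-coding genes and 0.978 FPKM over transcription factor genes.

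**Figure D1:**
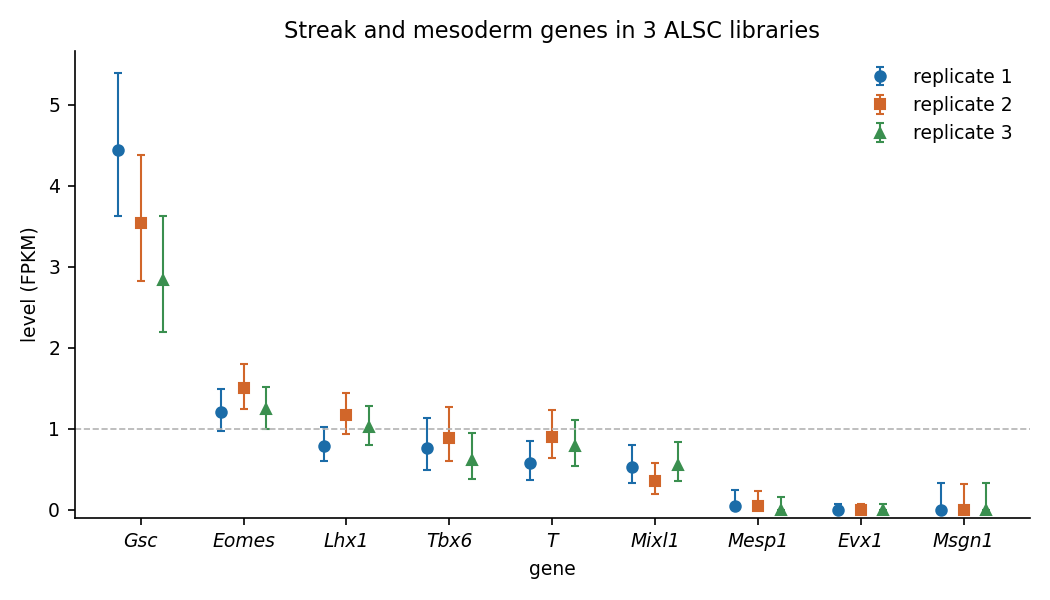
Level in FPKM (linear axis) of each of the 9 genes in replicates 1, 2, and 3, with exact Poisson 95% intervals of the counts as bars and a dashed line at 1 FPKM. *Gsc* lies above all others in every library, from 2.84 to 4.45 FPKM, and *Evx1* and *Msgn1* have no counts.

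Among the homeobox genes, *Gsc* (ENSMUSG00000021095; GRCm38 chr12:104471209-104473330, minus strand) encodes goosecoid, a repressor of transcription that is expressed in the anterior streak and organizer. It had 102, 84, and 65 counts in replicates 1, 2, and 3, or 4.45, 3.54, and 2.84 FPKM. It had the highest level of the 9 in every library, at 3.61 ± 0.805 FPKM (SD, n = 3), and its mean was above that of 65.3% of protein-coding genes and 72.7% of transcription factor genes. *Lhx1* (ENSMUSG00000018698; chr11:84518284-84525535, minus strand), a LIM homeobox gene of the anterior mesendoderm, had 58, 89, and 75 counts, or 0.787, 1.17, and 1.02 FPKM. Its mean of 0.992 ± 0.192 FPKM (SD, n = 3) fell just short of 1 FPKM, and only replicate 1 was under that level. *Mixl1* (ENSMUSG00000026497; chr1:180693043-180697034, minus strand), a paired-like homeobox gene induced by Nodal and BMP signals, had 22, 15, and 23 counts, or 0.530, 0.349, and 0.556 FPKM, with a mean of 0.478 ± 0.113 FPKM (SD, n = 3). *Evx1* (ENSMUSG00000005503; chr6:52313498-52318378, plus strand), the gene of the posterior streak next to the HoxA cluster, had 0 counts in each library, which allows a level of up to 0.0557 to 0.0578 FPKM.

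Among the T-box genes, *Eomes* (ENSMUSG00000032446; chr9:118478212-118486132, plus strand) had 91, 117, and 93 counts, or 1.21, 1.50, and 1.24 FPKM. Its mean of 1.32 ± 0.161 FPKM (SD, n = 3) was above that of 54.6% of protein-coding genes. *Tbx6* (ENSMUSG00000030699; chr7:126781483-126785560, plus strand) had 25, 30, and 20 counts, or 0.766, 0.888, and 0.615 FPKM. *T* (ENSMUSG00000062327; chr17:8434423-8442496, plus strand) had 24, 39, and 33 counts, or 0.573, 0.900, and 0.790 FPKM. The means of *Tbx6* and *T* lay close together, at 0.756 ± 0.137 and 0.754 ± 0.166 FPKM (SD, n = 3 for each), both above those of 50.6% of protein-coding genes. All 3 T-box genes had their highest FPKM in replicate 2.

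The bHLH genes were not detected. *Mesp1* (ENSMUSG00000030544; chr7:79792241-79793788, minus strand) had 1, 1, and 0 counts, under the limit of 0.126 to 0.130 FPKM. *Msgn1* (ENSMUSG00000047002; chr12:11208360-11208972, minus strand) had 0 counts in all libraries, and as it spans only 613 bases in 1 exon this allows up to 0.261 to 0.271 FPKM. That limit is higher than the one for *Evx1* and not far below the lowest level of *Mixl1* (0.349 FPKM), so a low level of *Msgn1* was not detectable at this depth.

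Ordered by mean FPKM, the genes ran *Gsc*, *Eomes*, *Lhx1*, *Tbx6*, *T*, *Mixl1*, *Mesp1*, with *Evx1* and *Msgn1* at 0. The libraries of neighbours did not overlap between *Gsc* and *Eomes* (at least 2.84 compared with at most 1.50 FPKM) or between *Mixl1* and *Mesp1* (at least 0.349 compared with at most 0.0434 FPKM). They were also apart, but by little, between *Eomes* and *Lhx1* (at least 1.21 compared with at most 1.17 FPKM). The same held between *T* and *Mixl1* (at least 0.573 compared with at most 0.556 FPKM). Within each library the counting intervals of *Eomes* and *Lhx1* overlapped. Those of *T* and *Mixl1* overlapped in replicates 1 and 3, but not in replicate 2 (from 0.640 FPKM compared with up to 0.576 FPKM). The ranges of *Lhx1* and *Tbx6*, and of *Tbx6* and *T*, overlapped. Within each library *Lhx1* was above *Tbx6*, at 0.787 compared with 0.766, 1.17 with 0.888, and 1.02 with 0.615 FPKM in replicates 1, 2, and 3. *Tbx6* was above *T* only in replicate 1. A sign test over 3 libraries cannot go below a two-sided p of 0.25, so no test was run on the order.

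Ratios within a library do not depend on its depth. They can depend on the length trend described below, by which replicate 1 held relatively more counts of short genes. *Gsc* was 3.67 times *Eomes* per kilobase in replicate 1 (exact 95% interval from the counts 2.74 to 4.93), 2.35 times in replicate 2 (1.76 to 3.14), and 2.29 times in replicate 3 (1.64 to 3.18). The ratio of *Eomes* to *T* was 2.11 (1.34 to 3.46), 1.67 (1.15 to 2.47), and 1.57 (1.05 to 2.41), a mean of 1.78 ± 0.288 (SD, n = 3), and every interval lay above 1. In contrast, *Tbx6* to *T* was 1.34, 0.987, and 0.778, and all of its intervals contained 1. Summed by family, the 4 homeobox genes made up 5.76, 5.05, and 4.42 FPKM in replicates 1, 2, and 3, and the 3 T-box genes 2.55, 3.29, and 2.65 FPKM. Homeobox RNA was thus the larger share in every library, and most of it was that of *Gsc*. The sum over all 9 genes was 8.36, 8.39, and 7.06 FPKM.

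Whether a gene varied between the libraries by more than counting error was tested on its counts with a chi-square test of homogeneity, adjusted by Benjamini-Hochberg over all genes tested. Of the 6 genes with enough counts, 1 was called, *Gsc* (adjusted p = 0.0166, chi-square test), while 47.2% of all 16944 genes tested were called. This test calls a given difference more readily at high counts. The 6 genes had only 60 to 301 counts in total, so these shares do not show that they varied less than other genes. For *Lhx1*, *Mixl1*, *T*, *Eomes*, and *Tbx6* the adjusted p was 0.204, 0.374, 0.403, 0.454, and 0.563 (chi-square test). With edgeR's goodness of fit, which allows for ordinary variation between replicates, 0 of the 6 were called, and 0 had an unadjusted p under 0.05, while 0.791% of all genes were called. The call for *Gsc* was lost without replicate 1 (adjusted p = 0.517, chi-square test on replicates 2 and 3) and without replicate 3 (adjusted p = 0.107, chi-square test on replicates 1 and 2).

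**Figure D2:**
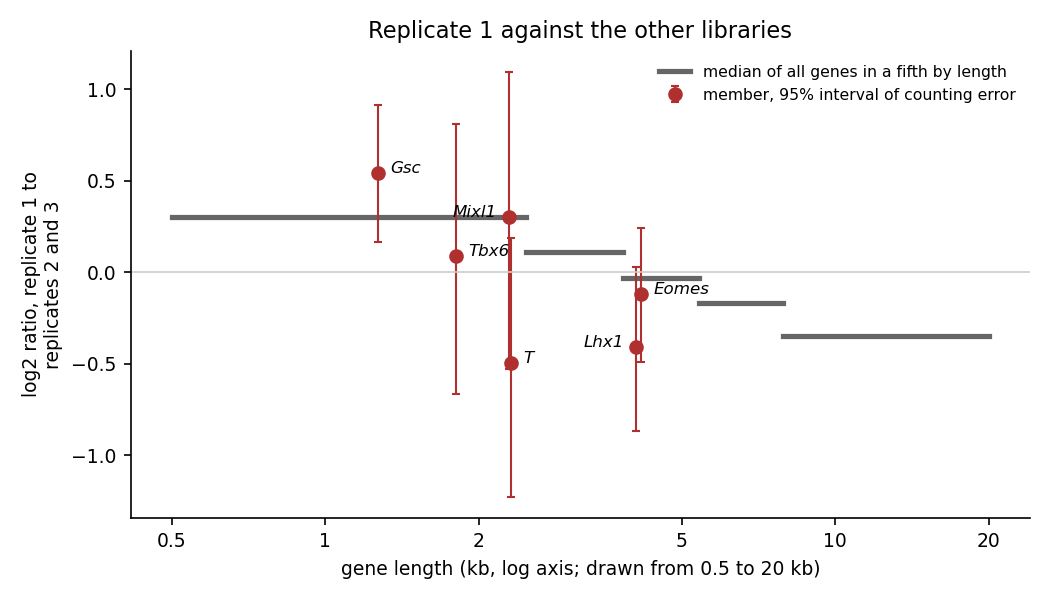
Log2 ratio of replicate 1 to the pooled replicates 2 and 3 after TMM scaling, plotted against gene length in kb (log axis), for the 6 detected genes with exact 95% intervals of the counts, and as grey lines the median of all genes with at least 100 counts on average in each of 5 equal groups by length. The medians fall from 0.30 for the shortest to -0.35 for the longest genes, and *Gsc*, the shortest of the 6, has the highest ratio, 0.54.

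Replicate 1 held relatively more counts of short genes and fewer of long genes than the other libraries. The median log2 ratio of replicate 1 to replicates 2 and 3 was 0.30 in the shortest of 5 groups of genes by length, and -0.03 in the group that holds *Lhx1* and *Eomes*. The ratio of *Gsc*, with a length of 1268 bases, was 0.54 (exact 95% interval 0.16 to 0.92), which contains the median of genes of like length. The intervals of *Tbx6* (0.09), *Mixl1* (0.30), *Eomes* (-0.12), and *Lhx1* (-0.41) contained the median of their group as well. *T*, with a length of 2315 bases, was at -0.50 (exact 95% interval -1.23 to 0.19), and this interval lay below the 0.30 of its group. The part of this trend in the levels of single genes was not tested.

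The 3 T-box members were compared with the rest of their family. Of the 17 T-box genes in the table, 7 were detected (41.2%) and 2 reached 1 FPKM in each library. *Mga*, a large gene whose product also carries a bHLH domain and pairs with MAX, had the highest level, at 4.47, 9.65, and 9.14 FPKM. It was lowest in replicate 1 and was the only T-box gene above *Eomes*. After *Eomes*, *Tbx6*, and *T* came *Tbx21*, the T-bet gene of lymphocytes, with 22, 19, and 16 counts and 0.418 FPKM on average. *Tbx4* followed at 0.150 FPKM. *Tbx5*, *Tbx10*, *Tbx15*, and *Tbx18* had no counts. *Tbr1*, the closest relative of *Eomes* together with *Tbx21*, had 0, 5, and 0 counts.

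**Figure D3:**
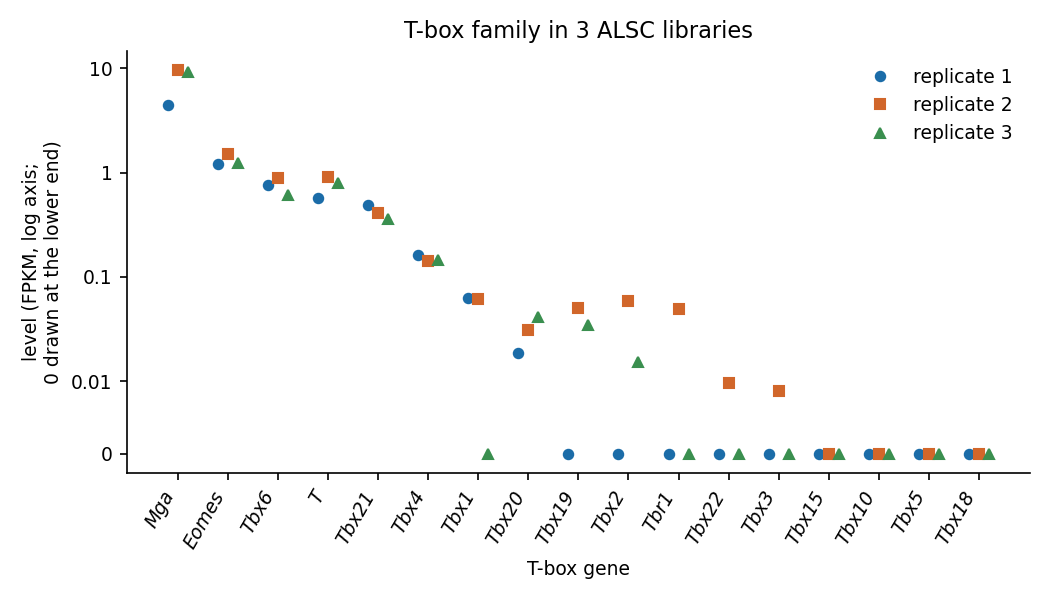
Level in FPKM (log axis, with 0 drawn at its lower end) of the 17 T-box genes in replicates 1, 2, and 3, ordered by their mean. *Mga* leads at 4.47 to 9.65 FPKM, followed by *Eomes*, *Tbx6*, and *T*, and 4 genes have no counts in any library.

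Paralogs of the other members were low or absent with the exception of *Otx2*, a head and epiblast homeobox gene related to *Gsc*, at 5.08 FPKM. *Gsc2* was at 0.592 FPKM with 16, 11, and 11 counts. *Lhx3* had 13, 3, and 6 counts, while *Lhx4* and *Lhx5* had at most 3 in any library. *Mesp2*, which lies 16939 bases from *Mesp1* and acts in the segmenting paraxial mesoderm, had 6, 5, and 3 counts. *Evx2* was at 0, like *Evx1*. For 7 of the 9 members every 50-base word of the longest coding transcript (GENCODE M21) occurred in no other gene. The share was 97.7% for *Eomes* and 99.1% for *Evx1*.

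An antisense RNA gene, *Gm33460*, overlaps the 3′ end of *Eomes* by 574 bases. Their exons share 118 bases, none of them coding, which is 2.84% of the exonic bases of *Eomes*. *Gm33460* had 10, 14, and 14 counts, and per length its level of 1.29 ± 0.227 FPKM (SD, n = 3) was close to the 1.32 FPKM of *Eomes*. How the counting handled strand is not given in the sources used here, so reads in the shared bases cannot be told apart. *Evx1os*, antisense to *Evx1*, had 0, 0, and 2 counts.

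The genes beside the members had levels of their own. *Tbx6* lies between *Ypel3*, 969 bases away and at 17.1 FPKM, and *Ppp4c*, which encodes a phosphatase subunit, 306 bases away and at 41.1 FPKM. Both were far above *Tbx6* in level. *Lhx1* lies 4762 bases from *Aatf*, which was at 20.5 FPKM, and *Mixl1* lies 2349 bases from *Lin9* at 3.82 FPKM. *Gsc*, in contrast, lies far from its neighbours, with *Dicer1*, which encodes the nuclease of microRNA maturation, at 8.47 FPKM and *Serpina3n* at 0.0444 FPKM. *T* was above both of its neighbours, *T2* (0.0313 FPKM) and *Pde10a* (0.436 FPKM). *Evx1* and *Hoxa13*, the closest gene of the HoxA cluster, were both at 0, and *Hibadh* on the other side was at 4.68 FPKM.

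**Figure D4:**
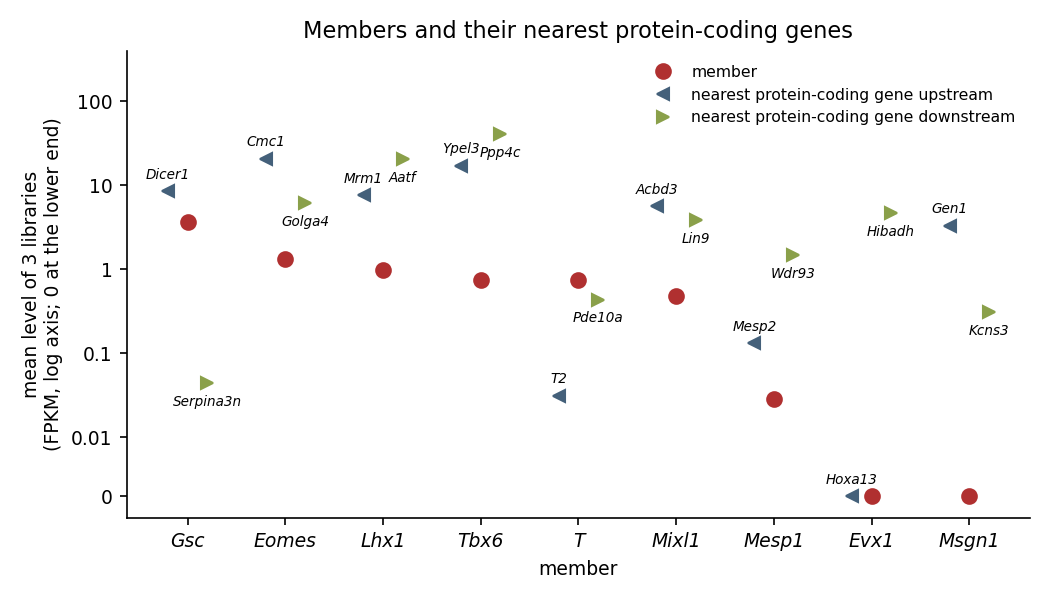
Mean level of the 3 libraries in FPKM (log axis, with 0 drawn at its lower end) of each of the 9 genes and of the nearest protein-coding gene upstream and downstream of it in the direction of its own strand. *Tbx6*, at 0.756 FPKM, sits between *Ypel3* and *Ppp4c* at 17.1 and 41.1 FPKM, whereas *T* is above both neighbours.

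Promoter windows of 300 bases (250 before and 50 after the RefSeq start, GRCm38.p6) were found for 8 of the 9 genes, all except *Mixl1*. CpG dinucleotides in the window numbered 31 for *Lhx1*, 25 for *Gsc*, 17 for *T*, 12 for *Evx1*, 10 for *Eomes*, 7 for *Tbx6*, and 4 each for *Mesp1* and *Msgn1*, with a median of 7 over all 32851 windows. CpG content and detection did not run in the same order, as *Evx1*, which was not detected, had more CpG than the detected *Eomes* and *Tbx6*. As examples of a CpG-rich and a CpG-poor start, the 100 bases just upstream of the gene of the table are given for *Gsc* (chr12:104473331-104473430, minus strand) and *Msgn1* (chr12:11208973-11209072, minus strand), 5′ to 3′, with CpG in capitals.
*Gsc*: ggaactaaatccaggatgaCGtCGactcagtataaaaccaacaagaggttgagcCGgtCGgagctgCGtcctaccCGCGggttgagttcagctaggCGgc
*Msgn1*: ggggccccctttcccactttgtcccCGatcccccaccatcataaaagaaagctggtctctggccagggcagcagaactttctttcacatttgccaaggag

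The windows were also searched on both strands for motifs of factors that act in the streak. The TCF/LEF motif CTTTGAT, bound by the factors that partner β-catenin in WNT signalling, occurred in *Mesp1* and *Msgn1* and in 3.73% of all windows. The variant CTTTGAA occurred in *Mesp1*, *Msgn1*, and *T* and in 5.14% of all windows. The T-box motif AGGTGTGA occurred in *Mesp1* and in 1.28% of all windows. The FOXH1 motif AATCCACA (0.855% of all windows) and the SMAD motif GTCTAGAC (0.213%) occurred in 0 of the 8. In *Mesp1*, all matches lie within the gene of the table, which starts 198 bases before the RefSeq start. The matches of *Msgn1* and *T* lie upstream of both starts and are given with the bases around them, 5′ to 3′ on the strand of the gene, with the motif or its reverse complement in capitals. They begin 203 and 143 bases before the RefSeq start in *Msgn1* (chr12:11209125-11209171 and chr12:11209065-11209111) and 235 bases before it in *T* (chr17:8434173-8434214). A match is a description of the sequence and not a bound site.
*Msgn1*, first match: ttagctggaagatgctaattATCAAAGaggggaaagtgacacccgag
*Msgn1*, next match: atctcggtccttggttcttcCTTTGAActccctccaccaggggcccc
*T*, match: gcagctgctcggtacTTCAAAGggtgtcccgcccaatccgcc

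For *Eomes*, *T*, and *Evx1* the study also designed RT-qPCR primers, which were placed on the GENCODE M21 transcripts to show which parts of the genes that assay reads. The *Eomes* pair lies in coding exons 2 (chr9:118480596-118480615) and 3 (chr9:118481288-118481308), outside the bases shared with *Gm33460*, and spans a product of 70 bases. The *Evx1* pair lies in coding exons 2 (chr6:52315846-52315868) and 3 (chr6:52316543-52316561) with a product of 178 bases, and its reverse primer also matches a transcript of *Evx2* exactly. The *T* pair lies in coding exons 3 (chr17:8436138-8436157) and 4 (chr17:8437018-8437037) with a product of 168 bases. The *T* forward primer, as listed, had no exact match in any annotated transcript. It differs from *T* by G2A, counted from 1 at the 5′ end of the primer with the base of the primer first, and that base is in capitals.
*T* forward primer: gGacctcggattcacatcgt
*T* reverse primer: ttctttggcatcaaggaagg
*Eomes* forward primer: cggcaaagcggacaataaca
*Eomes* reverse primer: ggagccagtgttaggagattc

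The genes that act before and after the members in the pathway were then looked at in lists. Of all protein-coding genes, 60.3% were detected and 45.7% were at 1 FPKM or more in each library, with a median of 0.682 FPKM. Of 13 ligands of Nodal and Activin, BMP, WNT, and FGF signalling, listed as inducing ligands, 10 were detected. At 1 FPKM or more were 8 of them, and the median was 2.33 FPKM. *Fgf5*, 1 of the 8, is also counted among the epiblast and pluripotency genes below. *Fgf8*, which streak cells need to migrate, was at 48.9 ± 3.90 FPKM, *Nodal* at 16.8 ± 1.70 FPKM, and *Gdf3*, a Nodal co-ligand, at 13.2 ± 1.41 FPKM (SD, n = 3 for each). *Gdf1* was at 0. *Bmp4* (4.13 FPKM), *Wnt3* (2.33 FPKM), and *Wnt3a* (1, 2, and 0 counts) were singled out after their values were seen, as the BMP and WNT ligands best known for streak induction. *Fgf8*, *Nodal*, and *Wnt3* were thus above *T* in each library, and *Wnt3a* was not detected.

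Of the receptors and transducers of these signals, 22 of 23 were detected and 20 were at 1 FPKM or more, with a median of 9.09 FPKM. *Tdgf1*, the Nodal co-receptor, was at 288 FPKM, *Ctnnb1*, which encodes β-catenin, at 178 FPKM, and *Foxh1*, the DNA-binding partner of SMAD2 in Nodal signalling, at 64.0 FPKM. The secreted antagonists were all detected, 5 of 9 at 1 FPKM or more, with a median of 2.79 FPKM. They were led by *Lefty1*, a feedback inhibitor and target of Nodal, at 350.1 FPKM, followed by the WNT inhibitor *Sfrp1* at 24.1 FPKM and *Lefty2* at 13.2 FPKM.

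**Figure D5:**
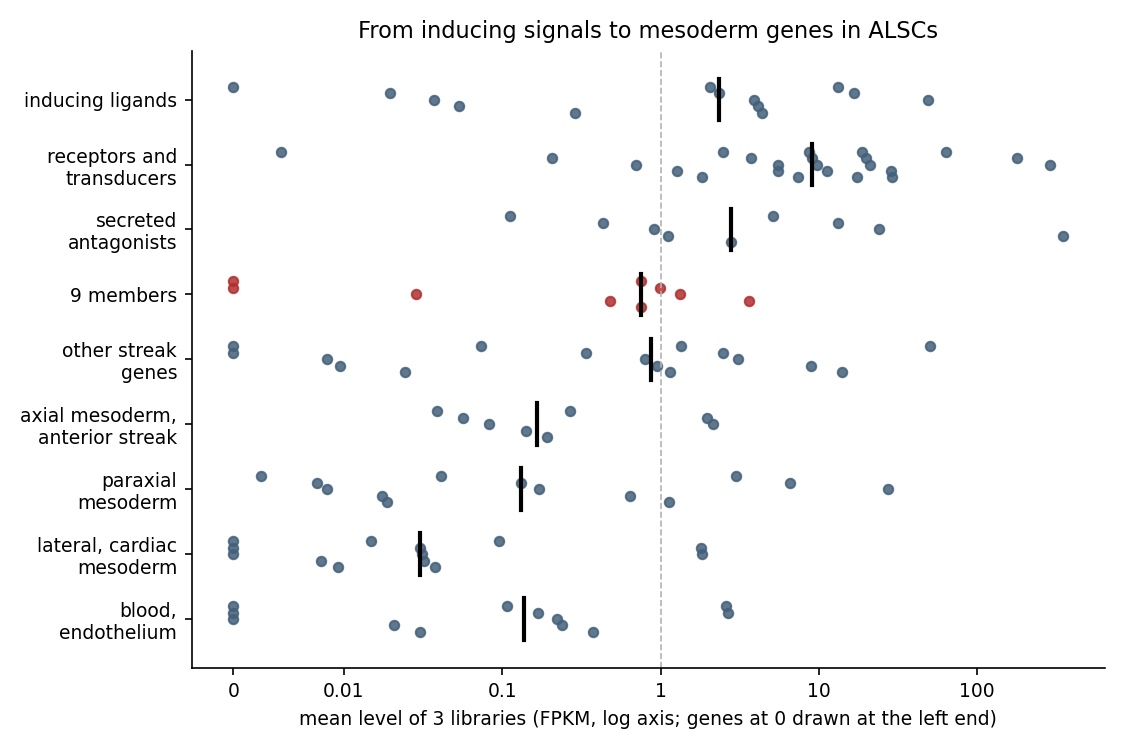
Mean level of the 3 libraries in FPKM (log axis, with genes at 0 drawn at the left end) of each gene in 9 lists, from inducing ligands to blood and endothelial genes, with the 9 members in red, black bars for list medians, and a dashed line at 1 FPKM. The medians are 2.33 FPKM for ligands, 9.09 FPKM for receptors and transducers, 0.754 FPKM for the 9 members, and 0.0304 FPKM for lateral and cardiac mesoderm genes.

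Of 16 other genes of the primitive streak, 11 were detected and 6 were at 1 FPKM or more, with a median of 0.870 FPKM, near that of the 9 members. Among the leading genes of this list, *Zic2* (50.4 FPKM) encodes a zinc finger factor that the epiblast and neural plate also express, and *Apela* (14.0 FPKM) encodes a ligand of the apelin receptor. *Cdx1* and *Evx2* had no counts. Axial mesoderm and anterior streak genes had a median of 0.167 FPKM, with 2 of 8 at 1 FPKM or more, the ciliary regulator *Foxj1* (2.16 FPKM) and *Foxa2* (1.96 FPKM). *Sox17*, a gene of definitive and extraembryonic endoderm, came next in this list at 0.268 FPKM.

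The paraxial mesoderm list, in which *Tbx6* and *Msgn1* would act, had a median of 0.131 FPKM, with 5 of 13 detected and 3 at 1 FPKM or more. Those 3 were *Tcf15* (27.3 FPKM), which pluripotent cells express before somites, and the Notch pathway genes *Dll3* (6.56 FPKM) and *Lfng* (3.01 FPKM). Lateral and cardiac mesoderm genes had a median of 0.0304 FPKM, with 5 of 13 detected and 1 at 1 FPKM or more. Its leading genes were *Isl1*, a LIM homeobox gene of cardiac progenitors and motor neurons, at 1.84 FPKM, *Myl7*, an atrial myosin light chain gene, at 3.00, 0.996, and 1.41 FPKM, and *Gata6* at 0.0951 FPKM. *Hand2*, *Tbx5*, and *Foxf1* were at 0. Blood and endothelial genes had a median of 0.138 FPKM, with 7 of 12 detected and 2 at 1 FPKM or more, *Etv2* (2.66 FPKM) and *Lmo2* (2.59 FPKM), and *Gata1* came next at 0.372 FPKM. *Gata2* and the embryonic globin genes *Hba-x* and *Hbb-bh1* were at 0.

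Together these 5 lists hold 62 different genes. Of these, 33 were detected, 14 reached 1 FPKM in each library, 25 had at most 3 counts in every library, and 8 had none, with a median of 0.101 FPKM. Of all 21926 protein-coding genes, 60.3% were detected, 45.7% reached 1 FPKM, 34.6% had at most 3 counts in every library, and 5794 had none. No test was made of a difference between these lists and the 9 genes.

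Cells of the streak pass through an epithelial to mesenchymal transition. Of 11 genes of that transition, 10 were detected and 7 were at 1 FPKM or more. The epithelial genes *Epcam* (116 FPKM) and *Cdh1* (25.2 FPKM), which encodes E-cadherin, were in the top 3 together with *Vim* (72.5 FPKM), which encodes the mesenchymal filament vimentin. The other genes of this list at 1 FPKM or more were *Cldn6* (17.7 FPKM), *Fn1* (14.6 FPKM), *Cdh2* (3.72 FPKM), and *Zeb1* (1.84 FPKM). Of these, *Cldn6* is an epithelial gene and the rest belong to the mesenchymal side. *Snai1*, the repressor of E-cadherin in the streak, had 10 counts in each library, or 0.338 FPKM. It and the genes after the top 3 were singled out after their values were seen.

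The label of the cultures was checked against markers. Of 12 epiblast and pluripotency genes, 11 were at 1 FPKM or more, led by *Pou5f1*, which encodes OCT4 (648 ± 25.3 FPKM, SD, n = 3), *Tdgf1*, and *Dnmt3b* (281 FPKM), and the 12th, *Zfp42*, a gene of naive cells, had 3, 3, and 2 counts. Other cells that could bring some of the members were also looked for. Extraembryonic endoderm markers were detected for 5 of 14 genes, with 0 at 1 FPKM or more in every library and a sum of 2.04 to 2.84 FPKM per library. *Amn* (0.978 FPKM), *Dab2* (0.906 FPKM), and *Sox17* (0.268 FPKM) led this list, and *Ttr*, *Apoa4*, *Apob*, and *Rhox5* were at 0. *Amn* and *Dab2* were above *T*, *Tbx6*, and *Mixl1* in mean level. Without replicate 3, 1 of these markers, *Amn*, was at 1 FPKM or more. In trophoblast, an early tissue in which *Eomes* is also known to act, 3 of 10 markers were detected, *Ascl2* (3.10 FPKM), *Tfap2c* (0.829 FPKM), and *Krt7* (0.434 FPKM). *Ascl2* was thus above *Eomes*, the sum was 4.20 to 4.54 FPKM per library, and *Tpbpa* and *Prl3d1* were at 0. Neuroectoderm markers were detected for 6 of 10 genes, 4 of them at 1 FPKM or more, with a sum of 72.0 to 78.4 FPKM. They were led by *Nes* (34.3 FPKM), *Tubb3* (28.0 FPKM), and *Sox1* (8.18 FPKM). *Zic1* was at 0, and *Pax6*, singled out after its values were seen, had 9, 3, and 10 counts. Fibroblast markers were detected for 5 of 9 genes, 4 of them at 1 FPKM or more, with a sum of 14.0 to 15.9 FPKM. *Thy1* (6.88 FPKM), *Col1a1* (5.04 FPKM), and *Pdgfrb* (1.54 FPKM) led them, and *Dcn* and *Lum* were at 0. Among all protein-coding genes, 60.3% were detected and 45.7% were at 1 FPKM or more in each library. None of the lists of markers of other cells exceeded either share. The part of such cells in the levels of the 9 genes was not tested.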

How the data were processed

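Polyadenylated RNA of 3 ALSC libraries was sequenced as paired-end reads. Per the labels, RNA was taken with Trizol and libraries were made with a TruSeq RNA kit. The paper's transcriptome methods instead name an RNeasy kit for the RNA. The submitters' processing notes name HISAT2 2.0.5, and the genome build was GRCm38. The counting program, the strand setting, and the treatment of reads with several matches are not given in the sources used here. The authors deposited raw counts per gene, without normalization, with the position and length of each gene. The table's 3 other count columns match no sample of this series and were not used. Of 55738 rows, 317 carry no gene name. They held 0.165% to 0.182% of the counts and were left out.

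FPKM was computed from the deposited counts, the deposited gene length, and the total on named genes (18037342 to 18724038). Intervals of counts are exact Poisson, and those of ratios are exact conditional binomial, at 95%. Reads are not independent molecules, so intervals cover counting error only. The chi-square test of homogeneity on TMM library sizes took genes with a total of 10 counts or more and a threshold of 0.05 on the adjusted p. The tests were tested on simulated data. As alternatives, other library sizes, TPM, other thresholds and filters, edgeR's goodness of fit, and leaving out each replicate were tried.

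The members and lists were chosen with earlier results of these data known. From each list the 3 most abundant genes and well-known genes at 0 were named, except for 1 gene that is not reported here. Members, T-box genes, paralogs, and neighbouring genes could all be named, and exceptions are stated. Promoter windows are from RefSeq, and transcripts and exons from GENCODE M21. Statistics were computed with edgeR 4.0.16 and DESeq2 1.42.0 under R 4.3.3 and in Python 3.11.15 with SciPy 1.17.1, pandas 2.3.3, and NumPy 2.4.6, and plots with matplotlib 3.10.9.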

Additional observations from a re-analysis of the deposited data

How the results depend on the processing

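No paired analysis was possible because there was only 1 group of libraries. TPM changes the unit and also scales each library to its own sum of counts per base. In TPM the summed level of the 9 genes was 21.9 (7.94 in FPKM). There, 6 genes rather than 2 were at 1 or more in all libraries, and 3 rather than 4 pairs of neighbours in the order were apart. At 0.5 FPKM 5 genes passed, and at 2 FPKM 1 gene, *Gsc*. Leaving out a replicate gave 2 to 3 genes at 1 FPKM or more, 0 to 1 genes that varied (1 with all libraries), 5 pairs of neighbours apart in the order (4 with all libraries), a ratio of *Eomes* to *T* of 1.62 to 1.89, and 15 of the 62 streak and mesoderm genes at 1 FPKM or more. The call for *Gsc* needed replicates 1 and 3. With edgeR's goodness of fit in place of the chi-square test, 0 genes varied. In TPM and without replicate 1, *T* came before *Tbx6*. TMM or DESeq2 library sizes and a total without mitochondrial genes moved none of the summed level, the number of genes at 1 FPKM or more, or the number of neighbours apart beyond its limit. The order of *T* and *Tbx6*, whose levels overlap, was the only order among the detected genes that turned under these settings. Counts under about 40 per library, as for *T*, *Tbx6*, and *Mixl1*, limit the precision of those levels.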
